A study of Mus musculus with 7 samples.

Results

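The inflammasome and gasdermin genes form the machinery of inflammatory cell death and cytokine release. They were taken as 10 genes named by symbol: the sensors Nlrp3 and Nlrp6, the adaptor Pycard, the caspases Casp1 and Casp4, the cytokine Il18, and the pore-forming gasdermins Gsdmd, Gsdmc2, Gsdmc3 and Gsdmc4. All 10 were found among the 43346 genes of the count table by their Ensembl identifiers. All 10 were among the 15810 genes with enough counts to be tested.

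RNA was measured in whole colon tumors of 7 mice, 3 that carried Dnmt3a+/+ bone marrow (BM) and 4 that carried Dnmt3a+/- BM. The donors of both groups carried Mx1-Cre, a recombinase under an interferon-inducible promoter, and the donors of Dnmt3a+/- BM also carried 1 floxed Dnmt3a allele. The donors had been given poly(I:C) to excise that allele. The recipients were lethally irradiated wild-type mice, which the sample labels call C57BL6/J of 8 wk and the methods describe as CD45.1 congenic. Every recipient then received a single dose of azoxymethane (AOM, 10 mg/kg) and then dextran sulfate sodium (DSS, 3%) in 3 cycles, which together cause colitis-associated cancer. The deleted allele is thus in the blood cells, whereas the epithelium of the tumor and the stroma that survives irradiation are wild type. The comparison asks how tumors grown with a heterozygous blood system differ from those grown with a wild-type one.

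An inflammasome is a protein complex that forms when a cytosolic sensor meets a microbial product or damage. The sensor recruits Pycard (ASC), which gathers caspase-1, and caspase-1 cuts pro-interleukin-18, pro-interleukin-1β and gasdermin D. Cut gasdermin D forms pores in the cell membrane, through which the cytokines leave and the cell may die by pyroptosis. Nlrp3 is best known from myeloid cells, whereas Nlrp6 and Il18 are expressed by the intestinal epithelium, where this axis has been studied for its part in the mucus barrier, the microbiota and colitis. The Gsdmc genes of the mouse are a family of near-identical copies that the gut epithelium expresses, and type 2 cytokines are known to induce them.

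Whether the reads of the Gsdmc copies can be told apart bears on every value given for them. On GRCm38, with GENCODE M21 annotation, the 3 genes lie side by side on the minus strand of chromosome 15, Gsdmc2 at 63824346 to 63845177, Gsdmc3 at 63857724 to 63878558 and Gsdmc4 at 63891264 to 63912297. Each has a coding sequence of 1440 bases. Gsdmc2 and Gsdmc3 were identical at 97.1% of aligned coding bases, Gsdmc2 and Gsdmc4 at 93.5%, and Gsdmc3 and Gsdmc4 at 93.4%, whereas Gsdmc itself was identical to each of them at 86.1 to 86.4%. The 3 copies were not all the same at 113 of 1434 coding positions (7.88%). The stretch of 120 coding bases in which they differed most held 27 of these positions. It is shown because reads from it can be assigned to 1 copy. It starts at coding base 759 in Gsdmc2 and Gsdmc3 and at coding base 765 in Gsdmc4, and capitals mark the positions at which the copies are not all the same.
Gsdmc2: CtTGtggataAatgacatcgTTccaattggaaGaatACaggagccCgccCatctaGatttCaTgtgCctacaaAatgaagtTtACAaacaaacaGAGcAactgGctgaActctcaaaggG
Gsdmc3: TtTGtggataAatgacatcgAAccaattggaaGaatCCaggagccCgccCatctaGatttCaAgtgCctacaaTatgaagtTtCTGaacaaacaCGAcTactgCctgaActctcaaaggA
Gsdmc4: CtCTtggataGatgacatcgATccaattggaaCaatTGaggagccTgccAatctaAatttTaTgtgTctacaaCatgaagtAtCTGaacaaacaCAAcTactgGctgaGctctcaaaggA
Along part of the transcripts there is no such difference. Of all 100-base words in the annotated transcripts of each gene, 28.6% for Gsdmc2, 28.4% for Gsdmc3 and 20.2% for Gsdmc4 also occurred in a transcript of another Gsdmc gene. The reads were paired, which these words leave out, so the share of read pairs that fit more than 1 copy was not measured. Such pairs were divided among the copies by the authors' estimation of counts, so the separate values of the copies are less certain than their sum.

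RefSeq's promoter table (GRCm38.p6) held 7 of the 10 genes, not Gsdmd, Gsdmc2 and Gsdmc4. The windows were searched on both strands for a STAT6 motif (TTCNNNNGAA), an interferon response motif (GAAANNGAAA), an HNF4 motif (CAAAGGTCA) and a pair of TATA box spellings (TATAAA and TATATAA, which may overlap), since type 2 cytokines, interferons and gut epithelial factors are known inducers of genes of this pathway. STAT6 matches were found in Nlrp3 and Il18, and 6.95% of all 32851 windows of 300 bases hold one. TATATAA was found in Gsdmc3 and Il18 (3.24% of windows) and TATAAA in Il18 (13.6%). No window of these genes held the interferon response (3.44%) or HNF4 (0.478%) letters. A match is a description of the letters and not a binding site. The 250 bases before the start are shown for the 3 genes in this table whose unadjusted p, given below, was under 0.05, with motif matches in capitals.
Nlrp6, chr7:140920652-140920901, plus strand: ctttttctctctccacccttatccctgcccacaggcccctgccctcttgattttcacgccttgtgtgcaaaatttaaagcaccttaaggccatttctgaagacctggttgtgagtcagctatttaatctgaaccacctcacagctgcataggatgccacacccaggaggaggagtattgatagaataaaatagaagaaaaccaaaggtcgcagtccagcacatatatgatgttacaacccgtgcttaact
Pycard, chr7:127993868-127994117, minus strand: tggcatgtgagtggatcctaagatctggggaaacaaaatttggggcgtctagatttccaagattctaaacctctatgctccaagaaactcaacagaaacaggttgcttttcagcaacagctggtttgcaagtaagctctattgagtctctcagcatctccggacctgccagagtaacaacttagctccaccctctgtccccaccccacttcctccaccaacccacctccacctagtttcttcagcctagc
Gsdmc3, chr15:63878559-63878808, minus strand: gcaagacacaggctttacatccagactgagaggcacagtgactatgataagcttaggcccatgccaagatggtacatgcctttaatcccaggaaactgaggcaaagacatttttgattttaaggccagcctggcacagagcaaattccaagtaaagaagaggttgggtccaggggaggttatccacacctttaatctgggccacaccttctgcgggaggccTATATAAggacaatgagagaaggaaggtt

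Total counts ranged from 38472738 to 64314999 per tumor. The names of the tumors in the labels begin with BMT18 (Dnmt3a+/+ BM tumors 1 and 2, Dnmt3a+/- BM tumors 1 and 2) or BMT8 (Dnmt3a+/+ BM tumor 3, Dnmt3a+/- BM tumors 3 and 4). These 2 sets are read here as 2 transplantation experiments, since the paper abbreviates BM transplantation as BMT. That is a reading of the names. Levels are given as CPM (the share of a tumor's total counts that fell on a gene) scaled by TMM, a normalization that assumes most genes do not differ between libraries. Differences are log2 fold changes of Dnmt3a+/- BM over Dnmt3a+/+ BM with their standard error (SE) from edgeR's quasi-likelihood test, and a call required both an adjusted p under 0.05 and a change of more than 1 log2 unit. Dnmt3a itself, which the graft shares with all other cells of the tumor, was at 24.3, 23.1 and 20.2 CPM with Dnmt3a+/+ BM and at 27.7, 43, 28.3 and 22 CPM with Dnmt3a+/- BM (adjusted p = 0.542), so whole-tumor RNA does not check the genotype of the graft. Dnmt3a+/- BM tumor 2 stood apart: it held the highest summed macrophage (239 CPM) and fibroblast (993 CPM) markers of the 7 tumors and the lowest summed epithelial markers (10359 CPM), and values are given without it where it decides them.

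None of the 10 genes was called, against 0% of the 15810 genes tested, among which the lowest adjusted p was 0.361. DESeq2, the tool of the study, also called none of the 10, while calling 1.90% of all genes. These 10 genes and the other gene lists were chosen with earlier results of these data known. A count set beside the share of all genes, here and below, is therefore a description and not a test. At an unadjusted p under 0.05, 4 of the 10 were lower with Dnmt3a+/- BM (Nlrp6, Pycard, Gsdmc3 and Gsdmc4) and none was higher, where 5.20% of all genes were lower and 5.83% higher at that p. That count rested on single tumors: it was 1 without Dnmt3a+/+ BM tumor 1 (7.84% of all genes had such a p in either direction), 1 without Dnmt3a+/+ BM tumor 2 (5.42%) and 6 without Dnmt3a+/+ BM tumor 3 (12.2%), all of them lower. The log2 fold change was below 0 for 8 of the 10, beside 49.8% of all genes, and its median was -0.57, beside 0.0025 over all genes. Without Dnmt3a+/- BM tumor 2, all 10 were below 0, beside 46.9% of all genes, with a median of -0.59, beside 0.025 over all genes. In that fit 1 of the 10 (Pycard) was lower at an unadjusted p under 0.05, beside 3.15% of all genes. Over all tumors, 8 of 9 general epithelial markers were also below 0, with a median of -0.56, or -0.45 without Dnmt3a+/- BM tumor 2. The 6 fibroblast markers were all above 0, with a median of 1.09, or 0.24 without that tumor. The per-tumor values of the 10 genes are plotted first, and each gene follows in the order of the pathway.

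**Figure D1:**
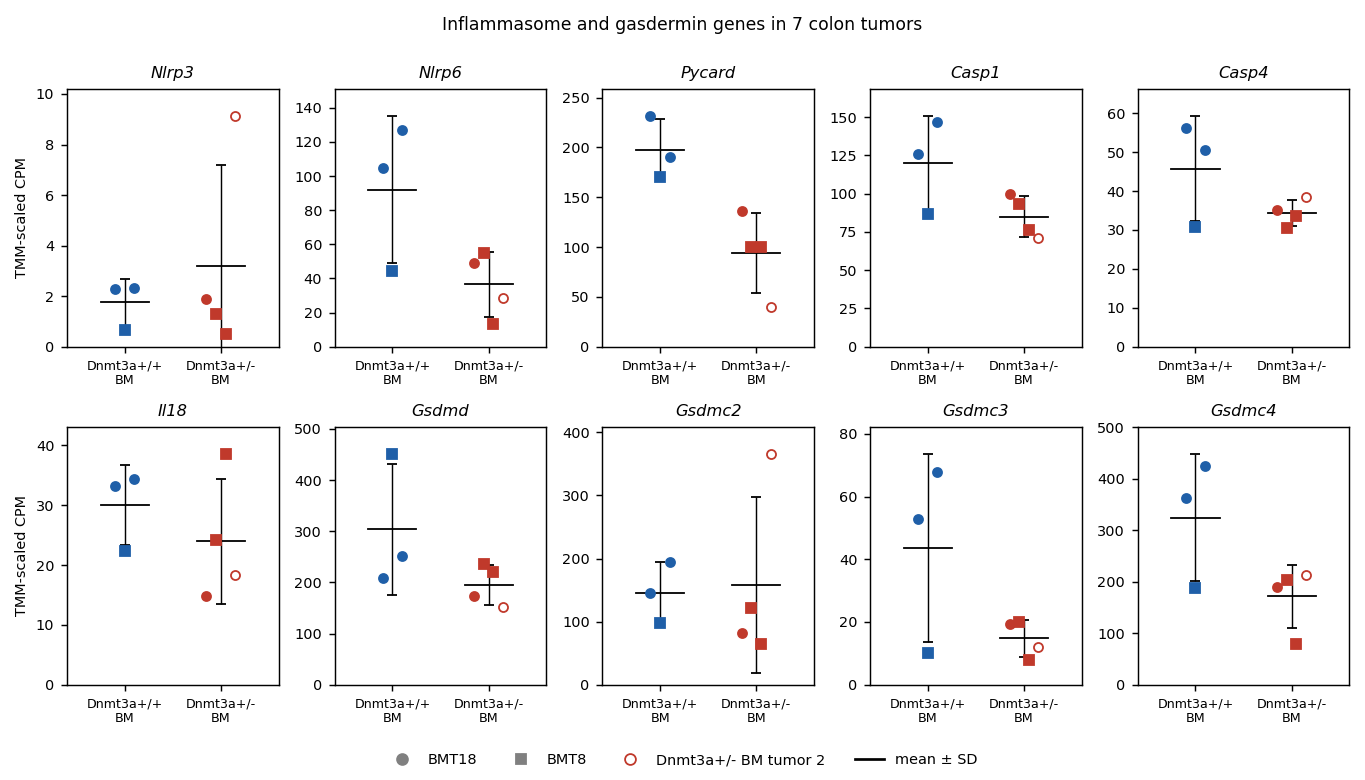
TMM-scaled CPM (y axis, from 0, its own scale in each panel) of the 10 genes by Dnmt3a genotype of the BM, with 1 symbol per tumor (circles for BMT18, squares for BMT8, the open circle for Dnmt3a+/- BM tumor 2) and lines for the mean ± SD, cut at 0 for Nlrp3. Pycard is the only one of the 10 in which every Dnmt3a+/- BM tumor lies below every Dnmt3a+/+ BM tumor, and for Nlrp3 and Gsdmc2 the open circle, at 9.11 and 365 CPM, lies far above the rest.

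Nlrp6, the epithelial sensor, was at 105, 127 and 44.3 CPM with Dnmt3a+/+ BM and at 49.1, 28.6, 55.1 and 13.2 CPM with Dnmt3a+/- BM. The 2 highest tumors were those with Dnmt3a+/+ BM from BMT18, and the third Dnmt3a+/+ BM tumor lay within the range of the Dnmt3a+/- BM tumors. The log2 fold change was -1.33 (SE 0.52, unadjusted p = 0.0344, adjusted p = 0.425). It stayed between -1.66 and -1.03 when any 1 tumor was left out, and 4 of these 7 fits kept an unadjusted p under 0.05.

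Nlrp3, the sensor of myeloid cells, was the least expressed of the 10, at 2.28, 2.31 and 0.673 CPM with Dnmt3a+/+ BM and at 1.87, 9.11, 1.3 and 0.487 CPM with Dnmt3a+/- BM. Apart from the 9.11 CPM of Dnmt3a+/- BM tumor 2, the groups overlapped, and the log2 fold change was 0.86 (SE 0.97, adjusted p = 0.79) and became -0.50 (adjusted p = 0.94) without that tumor. The 8 macrophage markers, 7 of which were tested, summed to 52.8 to 111 CPM with Dnmt3a+/+ BM and to 54.7 to 239 CPM with Dnmt3a+/- BM, or at most 104 CPM without tumor 2. None of these markers was at 0 in all tumors, and their part in the Nlrp3 values was not tested. In bulk tumors, fewer cells of a type and less RNA per cell cannot be told apart.

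Pycard, the adaptor that links sensors to caspase-1, was at 231, 190 and 170 CPM with Dnmt3a+/+ BM and at 136, 39.6, 99.7 and 100 CPM with Dnmt3a+/- BM. The groups did not overlap, which no other of the 10 genes showed and which held, in the lower direction, for 6.32% of all genes tested. Without Dnmt3a+/+ BM tumor 3, 6 of the 10 did not overlap in the lower direction, where 14.5% of all genes did not. The log2 fold change was -1.07 (SE 0.37, unadjusted p = 0.0203, adjusted p = 0.406). Leaving out 1 tumor gave -1.29 to -0.79, with an unadjusted p under 0.05 in 6 of 7 fits. The exact permutation test over the 35 splits of the tumors, two-sided, gave p = 0.0571, where the smallest p possible is 0.0286. In DESeq2 its adjusted p was 0.144 over all tumors and 0.0247 without Dnmt3a+/- BM tumor 1, when it was called (log2 fold change -1.29).

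Casp1, the protease of the canonical inflammasome, was at 126, 147 and 87 CPM with Dnmt3a+/+ BM and at 99.5, 70.9, 93.1 and 76.5 CPM with Dnmt3a+/- BM. The third Dnmt3a+/+ BM tumor again lay within the range of the other group, and the log2 fold change was -0.50 (SE 0.22, unadjusted p = 0.0504, adjusted p = 0.454).

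Casp4 (caspase-11), which senses cytosolic lipopolysaccharide and cuts gasdermin D without an adaptor, was at 56.2, 50.5 and 30.7 CPM with Dnmt3a+/+ BM. With Dnmt3a+/- BM it was at 35.2, 38.4, 30.5 and 33.5 CPM, a narrower range, relative to its level, than that of any other of the 10 genes in that group. The groups overlapped at the third Dnmt3a+/+ BM tumor, and the log2 fold change was -0.41 (SE 0.22, adjusted p = 0.521).

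Il18, the cytokine that caspase-1 matures, was at 33.3, 34.4 and 22.4 CPM with Dnmt3a+/+ BM and at 14.8, 18.4, 24.2 and 38.5 CPM with Dnmt3a+/- BM. The highest and the lowest tumor both carried Dnmt3a+/- BM, and the log2 fold change was -0.33 (SE 0.34, adjusted p = 0.76). RNA does not show how much of the cytokine was cut or released.

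Gsdmd, the pore of pyroptosis, was at 209, 251 and 450 CPM with Dnmt3a+/+ BM and at 173, 151, 235 and 220 CPM with Dnmt3a+/- BM. Its highest value was that of the third Dnmt3a+/+ BM tumor, which had the lowest value of its group for each of the 6 genes above. The log2 fold change was -0.64 (SE 0.29, unadjusted p = 0.0624, adjusted p = 0.478). It was -0.25 without that tumor, and -0.70 with the experiment as a covariate (unadjusted p = 0.0034, adjusted p = 0.261).

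Gsdmc4, the copy with the most counts, also per kb of exon, in 6 of the 7 tumors, was at 362, 424 and 187 CPM with Dnmt3a+/+ BM and at 190, 213, 203 and 79.6 CPM with Dnmt3a+/- BM. The difference was -0.92 on the log2 scale (SE 0.39, unadjusted p = 0.0482, adjusted p = 0.45). Gsdmc3 was at 52.8, 67.7 and 10.1 CPM with Dnmt3a+/+ BM and at 19.5, 11.9, 19.9 and 7.92 CPM with Dnmt3a+/- BM. It had the lowest log2 fold change of the 10 genes, at -1.56 (SE 0.60, unadjusted p = 0.033, adjusted p = 0.422). For both copies the third Dnmt3a+/+ BM tumor lay within the range of the Dnmt3a+/- BM tumors. Without it, Gsdmc3 was called by DESeq2 (adjusted p = 9.3e-04), whereas its adjusted p over all tumors was 0.167.

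Gsdmc2 was at 146, 194 and 97.5 CPM with Dnmt3a+/+ BM and at 82.3, 365, 122 and 63.9 CPM with Dnmt3a+/- BM. The groups overlapped, and the log2 fold change of 0.12 (SE 0.60, adjusted p = 0.964) became -0.67 without Dnmt3a+/- BM tumor 2. The 3 copies together were at 561, 685 and 295 CPM with Dnmt3a+/+ BM and at 291, 589, 346 and 151 CPM with Dnmt3a+/- BM. Their sum is not affected by how shared reads were divided among them, and its log2 fold change was -0.58 (SE 0.46, adjusted p = 0.669).

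The division of counts among the copies set Dnmt3a+/- BM tumor 2 apart. Gsdmc2 took 61.9% of the 28921 counts of the 3 copies in that tumor (95% Wilson interval 61.3 to 62.4%) and 26 to 42.2% in the other 6 tumors. Gsdmc4 took 36.1% there and 52.6 to 65.1% elsewhere, and Gsdmc3 took 2.02% there and 3.41 to 9.88% elsewhere. By group, the share of Gsdmc2 was 29.1% ± 3.58 (SD, n = 3) with Dnmt3a+/+ BM and 41.9% ± 14.5 (SD, n = 4) with Dnmt3a+/- BM, or 35.3% ± 6.98 (SD, n = 3) without tumor 2. These intervals cover counting error only, not the division of shared reads. The positions in capitals in the stretch printed above are where such a difference between copies would be read.

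**Figure D2:**
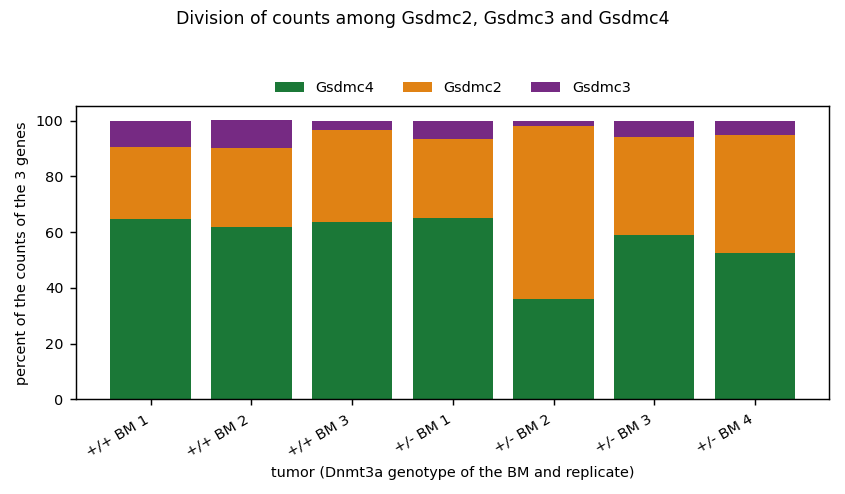
Share of the counts of Gsdmc2, Gsdmc3 and Gsdmc4 (y axis, percent of the 3 together) in each of the 7 tumors (x axis), stacked to 100%. Gsdmc4 is the largest part in 6 tumors, and Gsdmc2, at 61.9%, is the largest in Dnmt3a+/- BM tumor 2.

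Levels can be compared between genes only per length, taken here as all bases in any annotated exon of a gene. This can be longer than the transcript that a tumor expressed, and the value is then too low. For Pycard it was 3800 bases over 2 annotated transcripts, in a gene that spans 127989708 to 127993867. The place of Pycard in the order below is therefore uncertain. Per kb of annotated exon, with Dnmt3a+/+ BM (n = 3), Gsdmc4 was highest at 156 ± 58.8 CPM per kb (SD), followed by Gsdmd at 128 ± 54.1, Casp1 at 80.3 ± 20.5, Gsdmc2 at 63 ± 20.8 and Pycard at 51.8 ± 8.11. Il18 (29.1 ± 6.47), Gsdmc3 (18.7 ± 12.9), a slightly lower Nlrp6 (SD 8.4), Casp4 (12.3 ± 3.6) and Nlrp3 (0.433 ± 0.231) came next. Pycard and Il18, and Casp4 and Nlrp3, differed by more than the SD of either gene, and all other neighbours in this order differed by less than the larger of their SDs. With Dnmt3a+/- BM (n = 4), Gsdmc4 (82.1 ± 29.7 CPM per kb) and Gsdmd (81.9 ± 16.6) were level, and Nlrp3 (0.787 ± 0.982) was again the lowest.

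The 2 experiments were also read apart, and the difference between them was not tested. In BMT18, with 2 tumors a group, both Dnmt3a+/- BM tumors lay below both Dnmt3a+/+ BM tumors for 8 of the 10 genes, where 26.1% of all genes tested did. The exceptions were Nlrp3 and Gsdmc2. In that experiment alone 6 of the 10 were lower at an unadjusted p under 0.05, beside 5.88% of all genes, and none was called, beside 0% of all genes (lowest adjusted p 0.492). In BMT8, both Dnmt3a+/- BM tumors lay below the single Dnmt3a+/+ BM tumor for 2 of the 10 (Pycard and Gsdmd), where 35.5% of all genes did, and above it for 1 (Il18), where 36.5% did. With the experiment as a covariate, 2 of the 10 (Pycard and Gsdmd) were lower at an unadjusted p under 0.05, beside 7.32% of all genes. BMT8 holds 1 Dnmt3a+/+ BM tumor, so it gives no test of its own.

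Of 60 other genes of the pathway, written down as lists of sensors, caspases, interleukin-1 family members, pores, regulators and the type 2 axis, 59 were found in the table and 52 had enough counts to be tested. None was called by edgeR. At an unadjusted p under 0.05, 11 were lower (background 5.20%) and 2 were higher (5.83%), and their median log2 fold change was -0.35. The groups did not overlap for 8 in the lower direction (6.32% of all genes) and for 3 in the higher one (6.12%). With library sizes alone in place of TMM, which brings the median of all genes to 0.21, it was -0.13, and the median of the 10 genes was -0.36.

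The other sensors included the Naip genes and Nlrc4, which together detect bacterial flagellin and secretion needles and are expressed by gut epithelium. Of the 12 listed, 11 were tested, and 10 had a log2 fold change below 0, beside 49.8% of all genes. With library sizes alone 8 were below 0, beside 29.6% of all genes. In the main fit 6 were lower at an unadjusted p under 0.05, beside 5.20% of all genes. Of these 6, 5 were Nlrc4, Naip1, Naip2, Naip5 and Naip6, a grouping made after their values were seen. Naip2 was at 132, 175 and 91.8 CPM with Dnmt3a+/+ BM and at 77.8, 47.7, 85.6 and 76.5 CPM with Dnmt3a+/- BM, without overlap (log2 fold change -0.89, SE 0.27, unadjusted p = 0.012, adjusted p = 0.383). Naip5 (-0.65) and Naip6 (-0.86) did not overlap either, whereas Naip1 (-0.63) and Nlrc4 (-0.51) did. The Naip genes are copies of each other, so their reads may have been divided in the same uncertain way as those of the Gsdmc genes. Without Dnmt3a+/- BM tumor 2, 2 of these 5 kept an unadjusted p under 0.05, where 3.15% of all genes were lower at that p. The sixth was Nlrp9b, a sensor known from the intestinal epithelium, with a log2 fold change of -1.07. Aim2, which detects cytosolic DNA, was at 52.1, 61.3 and 62.1 CPM with Dnmt3a+/+ BM and at 40.2, 69.6, 55.4 and 60 CPM with Dnmt3a+/- BM (log2 fold change -0.06, adjusted p = 0.947).

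Among the other caspases, Casp12 was at 17.9 to 22.8 CPM with Dnmt3a+/- BM, above the 9.4 to 17.1 CPM with Dnmt3a+/+ BM, with a log2 fold change of 0.51 and an unadjusted p of 0.0664.

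Of the 11 genes of the interleukin-1 family and its receptors, 8 had a log2 fold change above 0, where 49.8% of all genes were below 0. Without Dnmt3a+/- BM tumor 2, 4 were above 0, where 46.9% of all genes were below 0. Il1b, the other cytokine that caspase-1 matures, was at 40.2, 40.1 and 20.3 CPM with Dnmt3a+/+ BM and at 28.3, 96.4, 13.3 and 12.1 CPM with Dnmt3a+/- BM. Its difference was 0.16 on the log2 scale (adjusted p = 0.96) with that tumor and -0.89 without it. Il1rl1, the receptor of interleukin-33, was at 8.97, 13.8 and 15.7 CPM with Dnmt3a+/+ BM and at 19.8, 224, 22.8 and 31.7 CPM with Dnmt3a+/- BM. The groups did not overlap, and the log2 fold change of 2.54 (SE 0.95, unadjusted p = 0.0292, adjusted p = 0.42) was 0.98 without tumor 2. Il1rn, the receptor antagonist, did not overlap in the lower direction (189 to 270 CPM against 82 to 173 CPM, log2 fold change -0.64, unadjusted p = 0.0542). Il18bp, the secreted inhibitor of interleukin-18, was at 19.3, 11.9 and 38.4 CPM with Dnmt3a+/+ BM and at 17.3, 9.39, 7.68 and 2.16 CPM with Dnmt3a+/- BM (log2 fold change -1.34, adjusted p = 0.492).

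Gsdma had values in the opposite direction. This gasdermin, known from skin and the upper gastrointestinal tract, was at 15.7, 10.7 and 12.9 CPM with Dnmt3a+/+ BM and at 28.8, 70.7, 34.6 and 34.4 CPM with Dnmt3a+/- BM, every tumor of the second group above every tumor of the first. The log2 fold change was 1.69 (SE 0.35, unadjusted p = 0.0014, adjusted p = 0.361) in edgeR, where it was not called. DESeq2 called it, the only one of the 52 genes, at an adjusted p of 0.0011, where 1.47% of all genes were called as higher; it gave no adjusted p for Il1rl1, Il18r1 and Gsdmc. Without Dnmt3a+/+ BM tumor 2 its adjusted p in DESeq2 was 0.0642, and it was not called. Without Dnmt3a+/- BM tumor 2 its log2 fold change was 1.35. Gsdme, the pore that caspase-3 opens, was at 5.17 to 7.65 CPM with Dnmt3a+/+ BM and at 4.89 to 9.33 CPM with Dnmt3a+/- BM (adjusted p = 0.754). Gsdmc, the more distant copy of the family, was at 2.39, 2.33 and 0.306 CPM with Dnmt3a+/+ BM. With Dnmt3a+/- BM it was at 10.6, 0.0204, 0.772 and 0.0811 CPM, and the log2 fold change of 0.77 (SE 1.70, adjusted p = 0.909) rests on the first of these tumors.

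**Figure D3:**
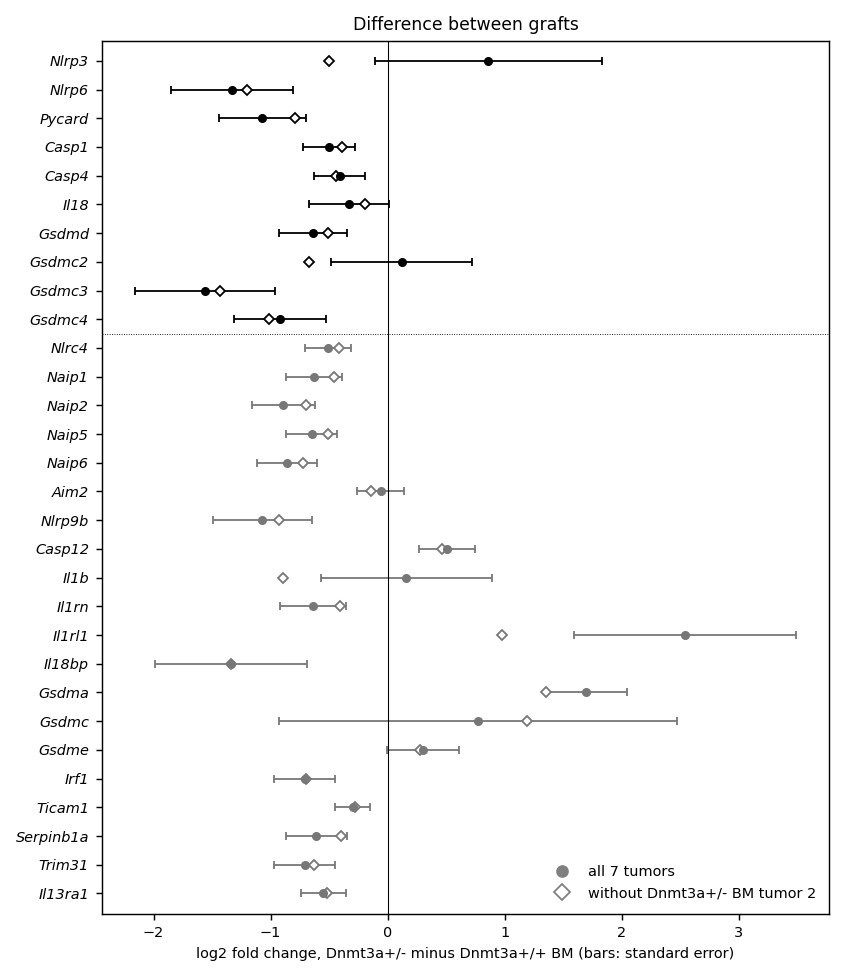
Log2 fold change (x axis, Dnmt3a+/- BM minus Dnmt3a+/+ BM) of the 10 genes, above the dotted line, and of the other tested pathway genes named in the text except Stat6, Il4ra and Il18r1, below it, with bars for the standard error and diamonds for the value without Dnmt3a+/- BM tumor 2. Most points lie left of 0, Gsdma (1.69) and Il1rl1 (2.54) lie right of it, and Nlrp3, Gsdmc2 and Il1b cross 0 when that tumor is left out.

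Of 18 regulators tested, 16 had a log2 fold change below 0, beside 49.8% of all genes. With library sizes alone 12 were below 0, beside 29.6% of all genes. In the main fit 3 were lower at an unadjusted p under 0.05, beside 5.20% of all genes. These were Irf1 (-0.71), a transcription factor of the interferon response, Trim31 (-0.71), a ubiquitin ligase that acts on Nlrp3, and Serpinb1a (-0.61), an inhibitor of inflammatory caspases and neutrophil proteases. Irf1 (221, 271 and 396 CPM against 206, 186, 209 and 122 CPM) and Serpinb1a (983, 923 and 764 CPM against 687, 350, 621 and 678 CPM) did not overlap between the groups. Ticam1, the adaptor of Toll-like receptors 3 and 4, did not overlap either, with a log2 fold change of -0.30.

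In the type 2 axis, the cytokines were near the limit of detection. Il13 had 0 counts in 5 tumors, 2 in Dnmt3a+/- BM tumor 1 and 9 in tumor 2, Il4 had at most 2 counts in any tumor, and Il25 had 0 in all 7, where 0 counts allow up to 0.0466 to 0.078 CPM. Il13ra1, a receptor chain for interleukin-13, was at 193, 205 and 143 CPM with Dnmt3a+/+ BM and at 146, 123, 124 and 98.4 CPM with Dnmt3a+/- BM (log2 fold change -0.55, unadjusted p = 0.0218, adjusted p = 0.406). Stat6 and Il4ra had log2 fold changes of -0.07 and -0.05.

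Markers of cell types were summed in each tumor and are given beside these values. The 9 general epithelial markers summed to 18818 to 37695 CPM with Dnmt3a+/+ BM and to 10359 to 24113 CPM with Dnmt3a+/- BM. Of these markers, 8 had a log2 fold change below 0, beside 49.8% of all genes, and the median was -0.56. All 7 mature colonocyte markers were below 0, with a median of -0.94, and summed to 1500 to 1683 CPM against 708 to 1205 CPM, without overlap. Their mean log2 CPM did overlap, at 6.68, 6.74 and 4.50 against 5.11, 5.43, 5.77 and 4.60. By that measure the third Dnmt3a+/+ BM tumor was lowest and Dnmt3a+/- BM tumor 4 next, whereas the sum of the former, 1525 CPM, was above that of every Dnmt3a+/- BM tumor. The third Dnmt3a+/+ BM tumor had the lowest Nlrp6 and Gsdmc3 of its group, and Dnmt3a+/- BM tumor 4 had the lowest of all 7 tumors. The 7 goblet markers were also all below 0, with a median of -0.92, at 1583 to 4338 CPM against 659 to 2373 CPM. The 5 general leukocyte markers summed to 34.3 to 84.4 CPM against 31.2 to 152 CPM, or at most 83.4 CPM without Dnmt3a+/- BM tumor 2, and their median log2 fold change was 0.46 with that tumor and -0.06 without it. The 7 neutrophil markers summed to 248 to 310 CPM against 137 to 284 CPM. The 6 T cell markers summed to 4.89 to 13.6 CPM against 1.14 to 13.6 CPM, and the 6 tuft cell markers to 19.3 to 56.1 CPM against 56.1 to 99.1 CPM. The 6 fibroblast markers summed to 149 to 294 CPM against 223 to 993 CPM, or at most 355 CPM without Dnmt3a+/- BM tumor 2, and their median log2 fold change was 1.09 with that tumor and 0.24 without it. The epithelial sums of at least 10359 CPM in every tumor show that the tissue carried the epithelium that its label implies. No marker of any list was at 0 in all tumors, for which 1 count in 1 tumor is enough. The part of these cell types in the values of the inflammasome and gasdermin genes was not tested.

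**Figure D4:**
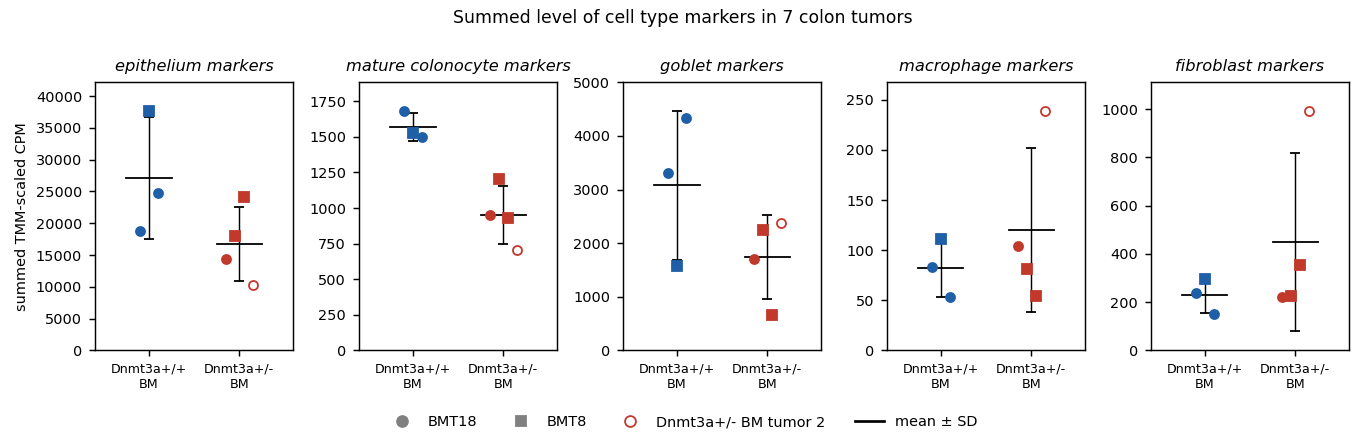
Summed TMM-scaled CPM (y axis, from 0) of 5 marker lists by Dnmt3a genotype of the BM, 1 symbol per tumor (circles for BMT18, squares for BMT8, the open circle for Dnmt3a+/- BM tumor 2) with the mean ± SD. The mature colonocyte sums do not overlap (1500 to 1683 against 708 to 1205 CPM), and the open circle is highest for macrophage and fibroblast markers.

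For the 4 genes of the 10 with the widest range over the tumors, the most similar profiles were sought among all genes tested, as the smallest root mean square difference of centred log2 CPM over the 7 tumors. They are given as a description, over tumors that share their library and depth. Nlrp3 was closest to Hgf (0.18), Chil3 (0.26) and Kit (0.36), with differences in log2 units and over a range of 4.10. Nlrp6 was closest to Adgrg7 (0.14), Syt6 (0.18) and Btnl5-ps (0.22), over a range of 3.26. Gsdmc3 was closest to Naaladl1 (0.20), Pkdcc (0.20) and Slc4a4 (0.21), and Pycard to Rhbdl2 (0.14), Mboat1 (0.14) and Klf4 (0.19).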

How the data were processed

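RNA of whole colon tumors was sequenced after poly(A) enrichment with a directional kit. The authors trimmed reads with Trimmomatic, aligned them with STAR to mm10 (mouse build 38) and estimated counts per gene with RSEM; the annotation release is not given in the sources used here. The deposited values are these estimated counts (expected counts), 100% of them whole numbers, with no normalization. Symbols were matched to 42462 identifiers, and genes without one held 0.104% of counts. Whether the tumors came from separate donors of BM is not given, so p-values measure the spread between these 7 mice.

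From the counts, edgeR 4.0.16 in R 4.3.3 compared the groups over all 15810 genes that passed filterByExpr (TMM, quasi-likelihood test, no covariate, Benjamini-Hochberg adjustment). Single members also had an exact permutation test on log2 CPM (prior count 2). Gsdmc coding sequences (GENCODE M21) were aligned with MAFFT 7.526. The members and lists were chosen with earlier results of these data known. Named were all members, and of the other lists the genes with an unadjusted p under 0.05, called by DESeq2 or without overlap between groups, plus 7 fixed genes (Il1b, Nlrc4, Aim2, Gsdme, Gsdmc, Il13, Il18bp). Il4, Il25, Stat6, Il4ra and Il18r1 were named beside these without meeting the rule. Alternatives were DESeq2 1.42.0, other scalings, no filter, a covariate for the experiment, a block for the replicate number, BMT18 alone, the adjusted p alone and each tumor left out. Both fits were tested on simulated data. The closest tumors (Dnmt3a+/+ BM 1 and Dnmt3a+/- BM 1, Spearman correlation 0.984 across genes) differed beyond sampling noise. Gbp5 was not analysed here. 1 gene of the other lists is counted but not reported here.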

Additional observations from a re-analysis of the deposited data

Results flagged for a closer look

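7 of 35 sets of 4 Dnmt3a+/- BM values held a tumor far from the other 3 by Dixon's test, which flags about 1 in 20 by chance. In Dnmt3a+/- BM tumor 2, Nlrp3 was highest at 9.11 CPM, Il1rl1 highest at 224 CPM, Gsdma highest at 70.7 CPM and Il1rn lowest at 82 CPM. Nlrp9b was highest at 6.35 CPM in tumor 4, Trim31 highest at 80.6 CPM in tumor 3, and Gsdmc highest at 10.6 CPM in tumor 1. For Gsdma and Il1rl1 the other 3 tumors of the group still lay above every Dnmt3a+/+ BM tumor.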

How the results depend on the processing

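DESeq2 called 300 genes where edgeR called 0 (1744 at an unadjusted p under 0.05), and 51 to 637 when a tumor was left out (238, 51 and 427 without Dnmt3a+/+ BM tumors 1 to 3, and 637, 162, 200 and 247 without Dnmt3a+/- BM tumors 1 to 4), which was added after seeing the data. Those fits called 0 to 1 of the 10 genes (Gsdmc3 without Dnmt3a+/+ BM tumor 3, Pycard without Dnmt3a+/- BM tumor 1). The count of the 10 at an unadjusted p under 0.05, 4 over all tumors, was 1 with library sizes alone, 2 with the experiment as a covariate and 1 to 6 when each tumor was left out. For the other pathway genes it was 13, 7 with library sizes alone and 4 to 13. The count without overlap, 1, was 8 in BMT18 alone, all in the lower direction, where 26.1% of all genes did not overlap. It was 1 to 6 when each tumor was left out, with 6 without Dnmt3a+/+ BM tumor 3, beside 14.5% of all genes in the lower direction. The replicate number as a block gave 2 of the 10 and 7 of the other genes. The labels name no pairs of tumors. Deviations of equally numbered tumors correlated at 0.57, 0.07 and -0.04, and 0.57 was the highest value between tumors of the 2 groups. Whether the numbers pair any tumors cannot be told from these values. The sign turned, with no call either way, for Nlrp3 (-0.50) and Gsdmc2 (-0.67) without Dnmt3a+/- BM tumor 2 (leaving out any tumor gave up to 1.22 and 0.38), Gsdmc2 (-0.09) without Dnmt3a+/+ BM tumor 3, and, added after seeing the data, Aim2 (0.17 with library sizes alone, 0.10 without Dnmt3a+/- BM tumor 1, lowest -0.14), Il1b (-0.09 without Dnmt3a+/+ BM tumor 3, -0.89 without Dnmt3a+/- BM tumor 2, highest 0.46) and Gsdmc (-2.48 without Dnmt3a+/- BM tumor 1, highest 1.19). The causes were not tested. The summed Gsdmc copies stayed below 0 in every fit.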
